A study of Homo sapiens with 30 samples.

Results

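The constant region genes of the immunoglobulin loci were examined in OCI-Ly1, an established human diffuse large B-cell lymphoma line, for 2 marks of active chromatin. The 10 genes were IGHM, IGHD, IGHG3, IGHG1, IGHA1 and IGHE of the heavy chain locus on chromosome 14, IGKC of the kappa locus on chromosome 2, and IGLL5, IGLC1 and IGLC2 of the lambda locus on chromosome 22. Every deposited peak that lay inside one of these genes or within 10 kb of it was taken, whatever its level. This gave 26 of the 21268 peaks of H3K4me3, the trimethylation of histone H3 that marks active promoters, and 44 of the 63580 peaks of H3K27ac, an acetylation mark of active promoters and enhancers. All 26 and all 44 passed the filter on low counts. Of the H3K4me3 peaks, 16 lay in the heavy chain locus, 2 in the kappa locus and 8 in the lambda locus. The H3K27ac peaks were 33, 3 and 8.

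Cells received JIB-04, a compound that blocks histone demethylases of the Jumonji family, at doses of 150 nM and 500 nM, while control cells received the solvent DMSO at 0.01%. Each mark had 2 chromatin immunoprecipitation sequencing (ChIP-seq) libraries for each of the 3 groups, so every mean is over n = 2 and each group is a single cell line. The length of treatment is not given in the sources used here. Nothing says that the replicates came from separate cultures, so the p-values measure only the spread between these libraries, which may be technical.

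An antibody is built from a heavy and a light chain, and the light chain is either kappa or lambda. A B cell joins V, D and J segments into a variable exon, which is spliced to a constant exon. Heavy chain constant genes follow the J segments in the order IGHM, IGHD, IGHG3, IGHG1, IGHA1, IGHE and IGHA2, with further gamma genes between IGHA1 and IGHE. Class switching deletes the DNA between repeated switch regions that lie on the J side of each constant gene except IGHD, and so replaces IGHM by a later gene. Transcription through a switch region, started at a promoter on its J side, precedes the switch. Reads here were placed on the unrearranged reference, and the gamma genes, the alpha genes and the lambda constant genes are close copies of one another. Their values are uncertain to the extent that reads were shared between copies.

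The total count in peaks was 9686420 to 12327122 in the 6 H3K4me3 libraries and 4360660 to 5410292 in the 6 H3K27ac libraries. Levels are given in CPM, counts relative to a library's sum over tested peaks, adjusted by the trimmed mean of M values, so a change shared by all peaks is not measured. Fewer cells carrying a mark and less of the mark per cell cannot be told apart in such bulk samples. Peaks within 1 kb of a B cell marker gene were present for 8 of 8 markers in H3K4me3 and 7 of 8 in H3K27ac, the exception being CR2. Of 6 myeloid markers 1 had an H3K4me3 peak and 0 an H3K27ac peak. For 8 T cell markers the numbers were 4 and 5, with a summed H3K4me3 level of 91.1 to 93.6 CPM in DMSO against 1376 to 1424 CPM for the B cell markers. In H3K27ac these sums were 447 to 488 CPM and 1996 to 2122 CPM, and CD8B, at 291 and 314 CPM, stood above the B cell marker CD79B, at 147 and 159.7 CPM. Of 5 epithelial markers 2 had an H3K4me3 peak and 1 an H3K27ac peak, with EPCAM at 69.0 and 71.7 CPM of H3K4me3 in DMSO. The part of other cell types in the results was not tested. On 5 unplaced contigs, the H3K27ac libraries DMSO replicate 2 and 150 nM replicate 2 had 72.8 and 46.4 CPM, against 327 to 447 CPM in the other 4. The part of this difference between libraries in the H3K27ac results was examined with a term for it in the fit.

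The stretch between IGHM and the J segments holds the switch region of IGHM. RefSeq (GRCh38.p14) places 4 microRNA hairpins there, all on the minus strand, which is the strand of the heavy chain genes. They are shown because they carry the switch repeat and because the H3K4me3 peaks that rose lie on either side of them. Capitals mark the pentamers GAGCU and GGGCU, the units of the switch repeat, which cannot overlap each other.
MIR4539 (chr14:105857513-105857572): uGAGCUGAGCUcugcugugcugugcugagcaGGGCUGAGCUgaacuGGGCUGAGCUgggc
MIR4507 (chr14:105858124-105858175): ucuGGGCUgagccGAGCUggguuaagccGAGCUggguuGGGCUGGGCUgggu
MIR4538 (chr14:105858165-105858242): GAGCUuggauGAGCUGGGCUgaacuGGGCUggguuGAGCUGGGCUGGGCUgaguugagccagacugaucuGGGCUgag
MIR4537 (chr14:105859484-105859553): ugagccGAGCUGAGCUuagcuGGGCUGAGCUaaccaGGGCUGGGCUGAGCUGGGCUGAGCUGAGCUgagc
The hairpins hold 6, 5, 8 and 10 pentamers on the strand shown, and 1, 0, 0 and 0 on the other strand. Among the 1562 hairpins of the table, 390 hold at least 1 pentamer and 15 (0.960%) hold 3 or more. No peak of either mark from the 10 genes lay over any of the 4 hairpins.

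At 500 nM the H3K4me3 signal of the heavy chain locus rose at its J end and fell at its IGHE end. The peaks over IGHM and at the J segments were higher than in DMSO, and 5 of the 6 peaks around IGHE were lower. Over all 26 peaks of the 3 loci, 3 were higher and 7 lower at a Benjamini-Hochberg adjusted p under 0.05 from edgeR's quasi-likelihood test, which is 38.5% of them. Of all 20402 H3K4me3 peaks tested, 39.4% were called, 20.7% higher and 18.7% lower, so the number called in the loci was near the background and is not a result about them. Their median log2 fold change was -0.07, beside -0.0063 for all peaks tested. At 150 nM 0 of the 26 peaks differed from DMSO, with 1 at an unadjusted p under 0.05, on a background of 0% called and 950 peaks at an unadjusted p under 0.05. DESeq2 also called 0 at 150 nM.

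IGHM encodes the heavy chain of IgM, the class made before switching. The H3K4me3 peak chr14:105854305-105857331 overlaps the J-side end of IGHM, which spans 105851966 to 105856217. It had 41.7 and 40.6 CPM in DMSO, 39.2 and 42.1 CPM at 150 nM, and 64.5 and 67.5 CPM at 500 nM. Both 500 nM libraries stood above the other 4, among which DMSO and 150 nM overlapped. The log2 fold change from DMSO to 500 nM was 0.68 (standard error 0.058, edgeR adjusted p = 4.71e-15), and 86.7% of tested peaks had a lower value. Against 150 nM it was 0.70 (standard error 0.058, edgeR adjusted p = 2.15e-15). The same peak is the only H3K4me3 peak within 10 kb of IGHD, the gene of the IgD heavy chain that is made together with IgM by alternative splicing, so IGHD has no H3K4me3 value of its own.

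On the far side of the switch region, 3408 bp further on, lay the strongest H3K4me3 peak of the heavy chain set. It spans chr14:105860740-105864046 and overlaps IGHJ6 and IGHJ5, in the part of the locus that holds the intronic enhancer. Its level was 164 and 156 CPM in DMSO, 156 and 158 CPM at 150 nM, and 176 and 180.3 CPM at 500 nM. The 500 nM libraries were again above the other 4, by a small margin. Its log2 fold change against DMSO was 0.15 (standard error 0.035, edgeR adjusted p = 3.43e-04). Between these peaks, 2 weak peaks of 240 and 452 bp had mean levels of at most a few CPM and were not called, with log2 fold changes of 0.33 and 0.021 (edgeR adjusted p = 0.605 and 0.956).

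**Figure D1:**
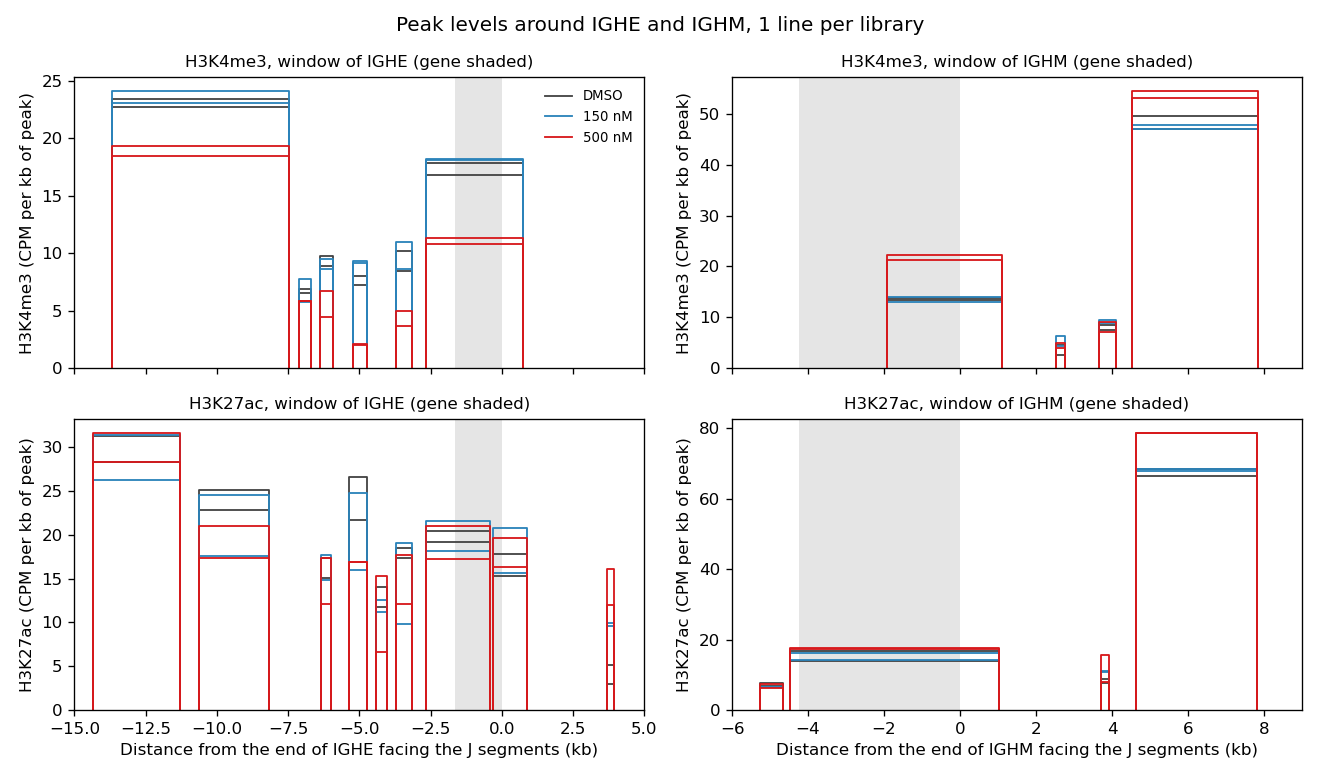
H3K4me3 (top) and H3K27ac (bottom) in peaks around IGHE (left) and IGHM (right), in CPM per kb of peak against the distance in kb from the end of the gene that faces the J segments; each line is 1 library and the gene is shaded. In H3K4me3 the 500 nM libraries lie below the others in 5 of the 6 IGHE peaks, and above them over IGHM and in the peak beyond 4 kb; in H3K27ac no peak of these windows was called.

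IGHE encodes the heavy chain of IgE. Its body carried the H3K4me3 peak chr14:105599067-105602461, which covers the whole gene (105600066 to 105601727). This peak had 60.8 and 57.0 CPM in DMSO, 61.8 and 61.4 CPM at 150 nM, and 38.4 and 36.8 CPM at 500 nM. The 500 nM libraries were far below the other 4, and those at 150 nM stood slightly above DMSO. The log2 fold change from DMSO to 500 nM was -0.65 (standard error 0.060, edgeR adjusted p = 1.23e-13), a value lower than all but 4.81% of tested peaks.

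The other 5 H3K4me3 peaks of the IGHE window lie between IGHE and IGHA2, the gene of the second alpha heavy chain. The nearest, chr14:105598013-105598571, went from 5.72 and 4.71 CPM in DMSO, and 4.84 and 6.14 CPM at 150 nM, to 2.04 and 2.76 CPM at 500 nM. The next, chr14:105596489-105596988, had 4.00 and 3.63 CPM in DMSO, 4.57 and 4.65 CPM at 150 nM, and 1.02 and 1.02 CPM at 500 nM. In both, the 500 nM libraries were below the other 4. Their log2 fold changes at 500 nM against DMSO were -1.15 (standard error 0.25, edgeR adjusted p = 1.44e-04) and -1.90 (standard error 0.32, edgeR adjusted p = 1.79e-06). Only 0.245% of tested peaks fell below the second value, which rests on 12 counts in 500 nM replicate 1 against 49 in DMSO replicate 1.

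Further toward IGHA2, chr14:105595344-105595786 had 4.33 and 3.93 CPM in DMSO, 4.21 and 3.82 CPM at 150 nM, and 1.96 and 2.96 CPM at 500 nM. Its log2 fold change against DMSO was -0.78 (standard error 0.26, edgeR adjusted p = 0.0135). That call was lost without DMSO replicate 1 (edgeR adjusted p = 0.0983), without 500 nM replicate 1 (edgeR adjusted p = 0.245) and by DESeq2 (adjusted p = 0.194). The neighbouring peak of 440 bp was not called, with a log2 fold change of -0.21 (edgeR adjusted p = 0.586). The broad peak chr14:105588028-105594271, which reaches IGHA2, had 146 and 142 CPM in DMSO, 144 and 151 CPM at 150 nM, and 115 and 121 CPM at 500 nM. Its groups did not overlap at 500 nM, and its log2 fold change was -0.29 (standard error 0.039, edgeR adjusted p = 8.05e-09).

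Several of these peaks were weak, and weak H3K4me3 peaks as a whole moved the other way. The IGHE-side peaks at about 4 to 6 CPM in DMSO belong to the second of 5 equal groups of peaks by mean level, which runs from 2.74 to 13.5 CPM. In that group of 4080 peaks the median log2 fold change from DMSO to 500 nM was 0.20, with 1391 peaks higher and 523 lower. Of the 13 immunoglobulin peaks in it, 1 was higher and 4 lower. In the highest group, which starts at 92.2 CPM, all peaks had a median of -0.059, with 197 higher and 1392 lower, and the J-segment peak of IGHM was among the 197.

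IGHG3 and IGHG1 encode IgG heavy chains and IGHA1 the heavy chain of IgA1. Their 6 H3K4me3 peaks were weak, and with the main scaling none was called at 500 nM against DMSO. The strongest, chr14:105741642-105743744 over IGHG1, had 18.5 and 15.8 CPM in DMSO, 21.6 and 19.5 CPM at 150 nM, and 14.6 and 15.1 CPM at 500 nM. The 3 groups did not overlap, in the order 150 nM, DMSO and 500 nM. The log2 fold change was -0.22 against DMSO (standard error 0.11, edgeR adjusted p = 0.113) and -0.47 against 150 nM (standard error 0.11, edgeR adjusted p = 3.23e-04). The first became -0.32 without DMSO replicate 2 (edgeR adjusted p = 0.0406) and -0.33 with loess offsets on abundance (edgeR adjusted p = 0.0149), and was then called.

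The IGHA1 peak chr14:105712386-105713788, on the J side of the gene, had 13.1 and 13.8 CPM in DMSO, 14.4 and 12.2 CPM at 150 nM, and 11.8 and 11.9 CPM at 500 nM. Although the 500 nM libraries were the lowest, the difference from DMSO was not called (log2 fold change -0.18, standard error 0.13, edgeR adjusted p = 0.279). With loess offsets it was -0.32 and called (edgeR adjusted p = 0.0418). The IGHG3 peak chr14:105774259-105775717, also on the J side of its gene, had 3.84 and 2.95 CPM in DMSO, 2.87 and 3.63 CPM at 150 nM, and 4.51 and 3.98 CPM at 500 nM (log2 fold change 0.31, standard error 0.24, edgeR adjusted p = 0.302).

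**Figure D2:**
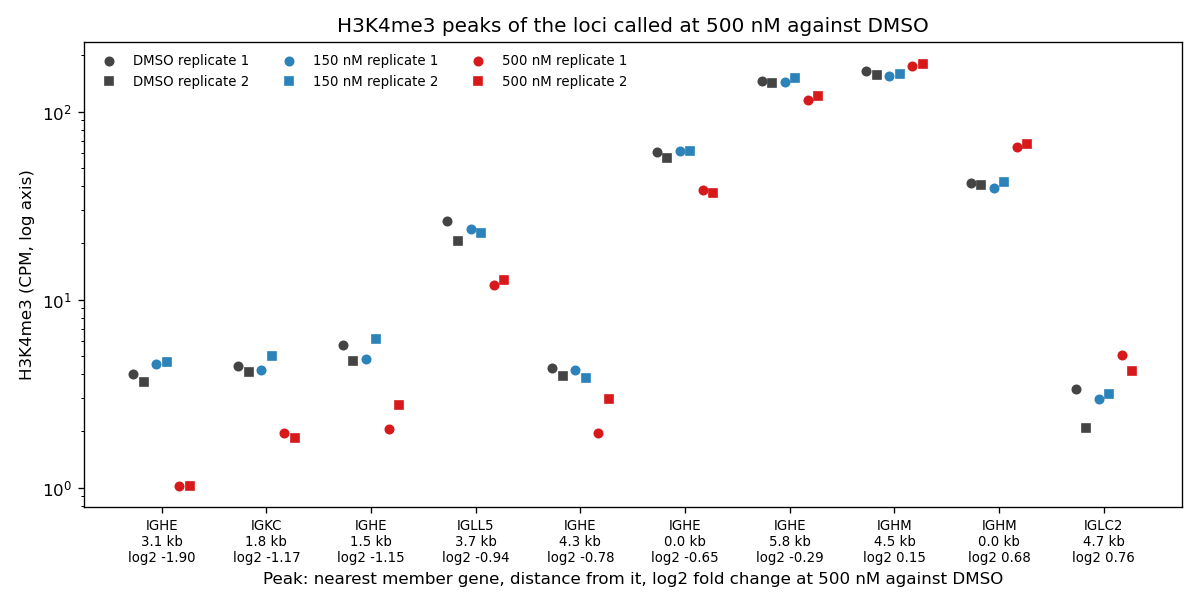
H3K4me3 level in CPM (log axis) of the 10 peaks called at 500 nM against DMSO, ordered by log2 fold change, with every library as a point (circles, replicate 1; squares, replicate 2; black, DMSO; blue, 150 nM; red, 500 nM). In 7 peaks the red points lie below all others and in 3 above all others, while black and blue points lie close together.

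In the kappa locus H3K4me3 was held almost wholly by 1 broad peak. The peak chr2:88856982-88867405 covers IGKC, the only kappa constant gene, and the 5 J segments, and its 10424 bp make it the 12th longest of all H3K4me3 peaks. It had 224 and 201 CPM in DMSO, 211 and 206 CPM at 150 nM, and 235 and 213 CPM at 500 nM. DMSO and 500 nM overlapped, and the log2 fold change of 0.077 was not called (standard error 0.036, edgeR adjusted p = 0.0884). It moved to 0.16 without DMSO replicate 1 (edgeR adjusted p = 5.53e-04) and to 0.14 without 500 nM replicate 2 (edgeR adjusted p = 0.00221). It was also called with loess offsets (0.16, edgeR adjusted p = 0.00138), with scaling by total counts (0.11, edgeR adjusted p = 0.0131) and with a replicate block (0.077, edgeR adjusted p = 0.0263). Against 150 nM it was 0.11 and called (edgeR adjusted p = 0.0150), but not without 500 nM replicate 1, when it was 0.031 (edgeR adjusted p = 0.615). That call was also lost without either 150 nM library (edgeR adjusted p = 0.0596 and 0.165), with these summed as 1 sample (0.0533) and by DESeq2 (0.469).

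The other kappa peak, chr2:88854807-88855601, lies 1760 bp from IGKC on the side away from the J segments, over the noncoding RNA gene LOC124907856. Its 4.41 and 4.13 CPM in DMSO and 4.21 and 5.03 CPM at 150 nM fell to 1.96 and 1.84 CPM at 500 nM, with no overlap. The log2 fold change was -1.17 (standard error 0.27, edgeR adjusted p = 3.46e-04).

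In the lambda locus the strongest H3K4me3 peak was not called with the main scaling, while a smaller peak ahead of it fell. IGLL5 is a gene whose transcript joins the first lambda J and constant segments without rearrangement, so it overlaps IGLC1 and reads of the pair cannot be told apart. The peak chr22:22886610-22895559 over IGLL5 and IGLC1 had 267 and 253 CPM in DMSO, 259 and 252 CPM at 150 nM, and 269 and 256 CPM at 500 nM. All 3 groups overlapped, and the log2 fold change was 0.011 (standard error 0.031, edgeR adjusted p = 0.801). With loess offsets on abundance it was 0.096 and called (edgeR adjusted p = 0.0112). The peak chr22:22881960-22884093, 3723 bp from the start of IGLL5, had 26.2 and 20.5 CPM in DMSO, 23.6 and 22.6 CPM at 150 nM, and 11.9 and 12.8 CPM at 500 nM. Its 500 nM libraries were well below the other 4, with a log2 fold change of -0.94 and a standard error of 0.11 (edgeR adjusted p = 3.25e-10).

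Beyond IGLC2, the peak chr22:22905952-22906589, which overlaps the J-side part of IGLC3, had 3.35 and 2.06 CPM in DMSO, 2.96 and 3.16 CPM at 150 nM, and 5.10 and 4.19 CPM at 500 nM. The 500 nM libraries were above the others (log2 fold change 0.76, standard error 0.25, edgeR adjusted p = 0.0113). The log2 fold change was 0.48 without DMSO replicate 2 (edgeR adjusted p = 0.190), 0.60 without 500 nM replicate 1 (edgeR adjusted p = 0.142) and 0.46 with loess offsets (edgeR adjusted p = 0.141), and none of these was called. DESeq2 did not call it (adjusted p = 0.186). The peak over IGLC2 itself, chr22:22900491-22901894, had 9.15 and 7.86 CPM in DMSO, 8.42 and 7.26 CPM at 150 nM, and 10.8 and 10.7 CPM at 500 nM. Although its 500 nM libraries were the highest, it was called against 150 nM (log2 fold change 0.45, edgeR adjusted p = 0.0138) and not against DMSO (log2 fold change 0.33, edgeR adjusted p = 0.0700). The first call was lost without 150 nM replicate 2 (edgeR adjusted p = 0.137), without 500 nM replicate 1 (0.0595), with loess offsets on abundance (0.131) and by DESeq2 (0.199), while scaling by total counts gave a call against DMSO (edgeR adjusted p = 0.0495).

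Against 150 nM, 13 of the 26 H3K4me3 peaks were called at 500 nM, 5 higher and 8 lower, on a background of 39.2%, of which 20.5% were higher and 18.6% lower. This comparison shares the 500 nM libraries with the one against DMSO. The 150 nM H3K4me3 libraries differed from each other by less than the sampling noise, with a chi-square of 0.920 per degree of freedom, as did DMSO replicate 1 and 150 nM replicate 1 at 0.948. The 150 nM libraries were kept as 2 samples. Summed as 1 sample they gave 10 called peaks against DMSO and 11 against 150 nM.

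**Figure D3:**
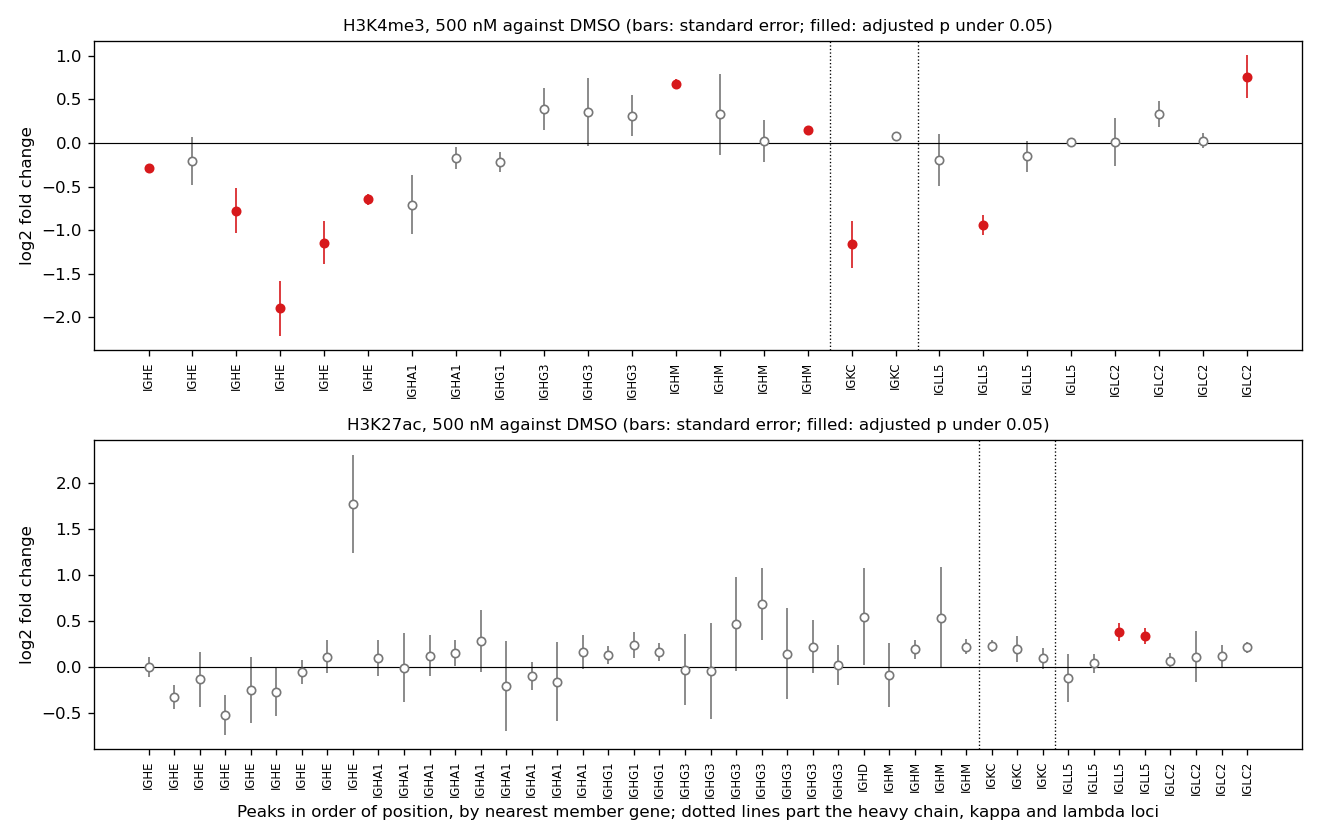
Log2 fold change at 500 nM against DMSO with its standard error for all 26 H3K4me3 peaks (top) and all 44 H3K27ac peaks (bottom), in order of position and named by the nearest of the 10 genes; filled points passed an adjusted p under 0.05. H3K4me3 values run from -1.90 to 0.76 with called peaks on both sides of 0, and the only filled H3K27ac points are 2 above 0 in the lambda locus.

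By CPM per peak, H3K27ac was strongest in the light chain loci, in very broad peaks. The lambda peak chr22:22909010-22947296, which runs from beyond IGLC3 past IGLC7, had the highest CPM of all 63580 H3K27ac peaks in every one of the 6 libraries. Its 38287 bp make it the 2nd longest of all, and per kb of length it ranked 55th. The kappa peak chr2:88829333-88862995, 33663 bp long, ranked 8th by mean level, 5th by length and 534th per kb of length. It covers IGKC, the J segments and the stretch beyond IGKC where the kappa enhancers lie. In the heavy chain locus the peak at the J segments, chr14:105860844-105864025, ranked 293rd by level but 15th per kb of length.

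Of the 44 H3K27ac peaks 2 were called at 500 nM against DMSO, both higher and both in the lambda locus, which is 4.5% of them. The background was 0.923% of 54037 peaks, 0.692% higher and 0.231% lower. Calls were more frequent among strong peaks. In the highest of 5 equal groups by mean level, 145 of 10808 peaks were higher and 82 lower, with a median log2 fold change of 0.022. That group held 19 of the 44 peaks, with the 2 called ones among them. The 44 were not compared with peaks of like level. The median log2 fold change of the 44 was 0.12, beside -0.0040 for all peaks tested, and 30 of the 44 were above 0. At 150 nM 0 of the 44 differed from DMSO (1 at an unadjusted p under 0.05, 0 by DESeq2), on a background of 0.00185%. Against 150 nM, 1 peak was higher at 500 nM, on a background of 1.27%, with 1.09% higher and 0.185% lower.

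The 2 called peaks lie side by side, the first over IGLL5 and the second over IGLL5 and IGLC1. The first, chr22:22884134-22890852, had 122 and 146 CPM in DMSO, 121 and 146 CPM at 150 nM, and 173 and 176 CPM at 500 nM. The 500 nM libraries were above the other 4, while the replicates of DMSO and of 150 nM stood apart from each other. Its log2 fold change was 0.38 (standard error 0.097, edgeR adjusted p = 0.0371), and 0.39 against 150 nM (edgeR adjusted p = 0.0213). The second, chr22:22890991-22900106, had 158 and 169 CPM in DMSO, 173 and 193 CPM at 150 nM, and 206 and 209 CPM at 500 nM, the 3 groups being apart in the order of dose. Its log2 fold change against DMSO was 0.34 (standard error 0.088, edgeR adjusted p = 0.0397).

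Both calls were lost when any DMSO or 500 nM library was left out. For the first peak the adjusted p by edgeR was then 0.623 without DMSO replicate 1, 0.0690 without DMSO replicate 2, 0.305 when 500 nM replicate 1 was left out and 0.481 when 500 nM replicate 2 was. The second peak gave 0.495, 0.265, 0.371 and 0.536 in the same order. DESeq2 did not call them (adjusted p = 0.340 and 0.240).

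The broad light chain peaks were also highest at 500 nM but were not called. The 38287 bp lambda peak had 1704 and 1801 CPM in DMSO, 1740.0 and 1920.5 CPM at 150 nM, and 2032 and 2035 CPM at 500 nM (log2 fold change 0.21, standard error 0.058, edgeR adjusted p = 0.0562). The kappa peak had 975 and 1019.6 CPM in DMSO, 1066 and 929 CPM at 150 nM, and 1197 and 1147 CPM at 500 nM (log2 fold change 0.23, standard error 0.065, edgeR adjusted p = 0.0689). In both, the 500 nM libraries were above the other 4. When 150 nM replicate 1 was left out, both were called (edgeR adjusted p = 1.01e-06 for lambda and 1.53e-06 for kappa), as they were without 150 nM replicate 2 (1.68e-06 and 2.04e-06). With a term for the contig difference, which is partly confounded with dose, the adjusted p by edgeR was 8.30e-06 for lambda and 0.0138 for kappa. The strongest H3K27ac peak of the IGLL5 and IGLC1 windows, chr22:22900510-22905574 over IGLC2, was not called. It had 235 and 260 CPM in DMSO, 234 and 257 CPM at 150 nM, and 258 and 261 CPM at 500 nM. DMSO and 500 nM overlapped there (log2 fold change 0.068, standard error 0.082, edgeR adjusted p = 0.813).

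**Figure D4:**
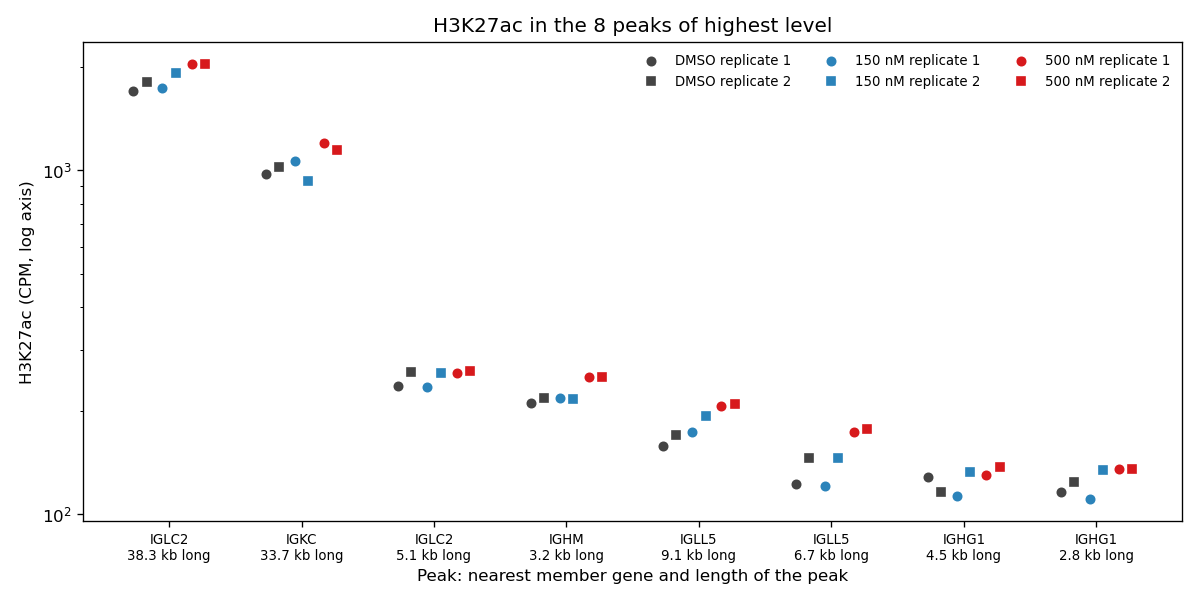
H3K27ac level in CPM (log axis) of the 8 peaks of highest mean level, labelled by the nearest of the 10 genes and the length of the peak; circles are replicate 1 and squares replicate 2, black DMSO, blue 150 nM and red 500 nM. The 38.3 kb lambda peak (1704 to 2035 CPM) and the 33.7 kb kappa peak (929 to 1197 CPM) stand far above the rest. Of the 8, only the lambda peaks of 6719 and 9116 bp were called at 500 nM against DMSO.

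In the heavy chain locus 0 of 33 H3K27ac peaks were called at 500 nM against DMSO by edgeR, on a background of 0.923%. An unadjusted p under 0.05 was found for 4 of them, and for 6208 of all 54037 peaks tested. These counts are near the background and are not a result about the locus. The J-segment peak had 211 and 217 CPM in DMSO, 218 and 215 CPM at 150 nM, and 250.0 and 249.7 CPM at 500 nM. Its 500 nM libraries were above the other 4 (log2 fold change 0.22, standard error 0.082, edgeR adjusted p = 0.233), and without 150 nM replicate 1 or 2 it was called (edgeR adjusted p = 0.00821 and 0.00874). The peak over IGHM, chr14:105851741-105857231, had 76.1 and 92.3 CPM in DMSO, 78.4 and 89.5 CPM at 150 nM, and 97.2 and 95.6 CPM at 500 nM (log2 fold change 0.19, edgeR adjusted p = 0.509). The highest heavy chain value was 1.78 at a peak of 267 bp near IGHE, which held 1.38 and 0.802 CPM in DMSO and 3.20 and 4.30 CPM at 500 nM (edgeR adjusted p = 0.106); it was singled out after its values were seen.

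Near the other heavy chain genes the leading H3K27ac peaks differed little between groups. The one reaching IGHA2, chr14:105587392-105590437, had 86.2 and 95.1 CPM in DMSO, 79.9 and 95.8 CPM at 150 nM, and 86.1 and 96.2 CPM at 500 nM. Those groups overlapped in full (log2 fold change 0.0060, edgeR adjusted p = 0.994). The leading IGHG1 peak, chr14:105729706-105734215, had 129 and 116 CPM in DMSO, 113 and 133 CPM at 150 nM, and 130.2 and 137 CPM at 500 nM (log2 fold change 0.13, edgeR adjusted p = 0.666). The peak over IGHG1 itself, chr14:105740946-105743746, was nearly as strong. It had 116 and 124 CPM in DMSO, 110 and 134.0 CPM at 150 nM, and 134.9 and 134.9 CPM at 500 nM. Its 500 nM libraries were the highest, but it was not called (log2 fold change 0.17, edgeR adjusted p = 0.534). The leading IGHA1 peak, chr14:105699683-105700721, on the side of IGHA1 away from IGHM, ranked 262nd of all H3K27ac peaks per kb. It had 29.7 and 40.3 CPM in DMSO, 31.9 and 39.2 CPM at 150 nM, and 40.3 and 37.9 CPM at 500 nM (log2 fold change 0.15, edgeR adjusted p = 0.745). For IGHG3 the leading peak, chr14:105772498-105773156, stayed between 9.99 and 14.1 CPM in all 6 libraries.

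Where the marks met, they did not move together throughout. An H3K27ac peak of the set overlapped 22 of the 26 H3K4me3 peaks. Each was paired with only the H3K27ac peak that it overlapped over the most bases. Of those pairs 16 had the same sign at 500 nM against DMSO. Of the 7 H3K4me3 peaks that fell, 0 had a called paired H3K27ac peak and 2 had a paired value above 0. Of all H3K27ac peaks tested, 0.923% were called and 0.231% were called lower, so the 0 is near the background and is not a result about these peaks. The 5 IGHE-side peaks that fell in H3K4me3 had paired H3K27ac log2 fold changes of -0.32, -0.13, -0.52, -0.27 and -0.054, from the IGHA2 end to IGHE, and none was called (edgeR adjusted p = 0.304, 0.917, 0.316, 0.751 and 0.924). At -0.32 and -0.52 the 500 nM libraries were below both DMSO libraries but overlapped those at 150 nM. The H3K4me3 peaks reaching IGHA2 and over IGHE each overlapped another H3K27ac peak, outside these pairs. Those were at 0.0060 and 0.12 and were not called (edgeR adjusted p = 0.994 and 0.862), so the negative series depends on the pairing. The kappa and lambda peaks that fell in H3K4me3 were paired with H3K27ac values of 0.23 and 0.043. Whether the marks differed in response was not tested.

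When counts were summed over all peaks within 10 kb of a gene, 4 of the 10 genes were called for H3K4me3 at 500 nM against DMSO, 3 higher and 1 lower, on a background of 43.1% of 24807 genes, 20.5% higher and 22.6% lower. The log2 fold change was 0.27 for IGHM (standard error 0.031, edgeR adjusted p = 1.17e-10), 0.68 for IGHD from the IGHM peak, 0.35 for IGHG3 (standard error 0.15, edgeR adjusted p = 0.0488) and -0.42 for IGHE (standard error 0.033, edgeR adjusted p = 3.66e-16). The IGHG3 value was -0.012 with loess offsets on abundance (edgeR adjusted p = 0.963), and its call was lost in each leave-one-out fit and by DESeq2. Those offsets gave 5 genes higher and 3 lower. For H3K27ac 0 of the 10 genes were called by edgeR, on a background of 2.01% of 24944 genes (1.54% higher and 0.465% lower). DESeq2 also called 0. By edgeR 5 had an unadjusted p under 0.05, beside 3958 of all 24944 genes. IGLL5, IGLC1 and IGLC2 are among the 5 and share peaks, so these are not 5 separate results. The lowest adjusted p was 0.0637, for IGLC2. At 150 nM 0 genes were called in either mark.

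By level per kb of peak in DMSO, IGHM led in H3K4me3 with 29.3 ± 0.964 CPM per kb (SD, n = 2). IGLC2 followed with 22.8 ± 1.01 and IGLC1 with 21.4 ± 0.881, then IGKC with 19.3 ± 1.48, IGLL5 with 18.9 ± 1.01 and IGHE with 18.9 ± 0.597 CPM per kb. IGHD had 13.6 ± 0.271, IGHA1 8.77 ± 0.233, IGHG1 8.17 ± 0.915 and IGHG3 2.94 ± 0.0349 CPM per kb. Neighbours whose DMSO libraries overlapped were IGLC2 and IGLC1, the trio of IGKC, IGLL5 and IGHE, and IGHA1 and IGHG1. These values include peaks at a distance from the gene. The IGLC2 value came mainly from the peak over IGLL5 and IGLC1 (260 of 300 CPM in DMSO). The peak over IGLC2 itself held 6.06 CPM per kb. For IGHM the J-segment peak gave 160 of 206 CPM, and for IGHE the peak reaching IGHA2 gave 144 of 219 CPM. At 500 nM IGHM stood at 35.4 ± 0.805 and IGHE at 14.2 ± 0.331 CPM per kb.

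In H3K27ac the order was led by IGLC2 with 40.2 ± 1.75 CPM per kb and IGHM with 32.1 ± 1.70 CPM per kb (SD, n = 2). IGKC, IGHG1, IGLC1, IGLL5 and IGHE followed between 27.1 and 22.5 CPM per kb, each overlapping the next in its DMSO libraries. IGHA1 had 17.1 ± 1.64, IGHD 13.9 ± 1.71 and IGHG3 10.2 ± 0.580 CPM per kb, without overlap between neighbours. The IGLC2 value comes mainly from the 38287 bp peak (1752 of 2217 CPM in DMSO), which starts 7715 bp from the gene. That of IGHM comes mainly from the J-segment peak (214 of 304.5 CPM). The IGHD value comes mainly from the peak over IGHM (84.2 CPM in DMSO). The only peak near IGHD that is not shared with IGHM held 1.85 CPM. IGHG3 was lowest in both marks.

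Summed over a locus, H3K4me3 differed little between DMSO and 500 nM. The heavy chain peaks had 476 and 455 CPM in DMSO and 444 and 459 CPM at 500 nM, in which the IGHM rise and the IGHE fall are added together. H3K27ac sums were higher at 500 nM in each locus. They were 964 and 1014 CPM in DMSO and 1046 and 1087 CPM at 500 nM for the heavy chain, 1072 and 1119 against 1311 and 1251 for kappa, and 2376 and 2546 against 2833 and 2859 for lambda. The sums were not tested.

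Genes elsewhere whose H3K4me3 followed a locus most closely over the 6 libraries were ING3 for the heavy chain (Pearson r = 0.991), LINC01273 for kappa (r = 0.995) and POLR3B for lambda (r = 0.986). For H3K27ac they were CETN3 for the heavy chain (r = 0.995), RAD21 for kappa (r = 0.999) and EPN2-AS1 for lambda (r = 0.996). These are correlations of log2 CPM over 6 libraries that share their scaling, out of 24756 and 24887 genes, and 59 to 1362 genes exceeded 0.9 for a given locus and mark.

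Of 13 other immunoglobulin genes and pseudogenes, 10 had tested H3K4me3 peaks within 10 kb, and at 500 nM against DMSO 0 were higher and 6 lower, on the background of 20.5% higher and 22.6% lower. Their median log2 fold change was -0.16 beside -0.022 for all genes. IGHA2, which shares its main peak with the IGHE window, went from 167 and 159 CPM to 124 and 132 CPM (log2 fold change -0.35, edgeR adjusted p = 5.49e-12). VPREB3, a protein of early immunoglobulin assembly encoded near the lambda locus, had a log2 fold change of -0.27 (edgeR adjusted p = 1.30e-05). The pseudogene IGHEP1 (-0.29) and IGLC5, IGLC6 and IGLC7 (-0.15, -0.18 and -0.18) were the others. IGLC6 and IGLC7 had equal counts, and IGLC5 nearly the same (123 and 114 against 119 and 112 CPM in DMSO). Most of the IGHEP1 level was the IGHA1 peak chr14:105712386-105713788 (13.4 of 18.4 CPM in DMSO), not called by itself with the main scaling. The 6 genes are therefore not separate results. IGHG4, IGHGP, IGLC3 and IGLC4 were not called. For H3K27ac 0 of 12 tested genes of this list were called by edgeR, on a background of 2.01%.

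Among 23 genes that assemble, transcribe or switch immunoglobulin genes, 4 were higher in H3K4me3 at 500 nM, 14 lower and 5 not called, on the background of 20.5% of all genes higher and 22.6% lower. Their median log2 fold change was -0.12, beside -0.022 for all genes. In the highest group of H3K4me3 peaks by level, 197 of 4081 were higher and 1392 lower. The list was not compared with genes of like level. Those higher included XBP1 (0.57) and PRDM1 (0.23), regulators of antibody-secreting cells, and IRF4 (0.15 on the log2 scale), which acts on PRDM1. The falls were led by SPI1 (-0.38) and SPIB (-0.30), related factors that bind light chain enhancers, by CD79B (-0.34), a signalling partner of the membrane antibody, and by TCF3 (-0.25), a factor of the E boxes in the enhancers. POU2F2 (-0.19) and POU2AF1 (-0.12), the octamer factor and its coactivator, were lower too. CD79A, IRF8, MEF2B, JCHAIN and BACH2 were not called. For H3K27ac 0 of the 23 were called by edgeR, on a background of 2.01%.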

How the data were processed

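Counts per consensus peak of 12 of the 30 libraries were analysed; input, H3K9me2 and H3K9me3 were not. Groups and replicate numbers come from the titles. Per the file headers, the deposited counts were made with featureCounts 2.0.1, unstranded, a read counting in several peaks if a fraction of 0.2 lay in each; the headers record a paired option, the labels 50 bp single reads, so the unit counted, read or fragment, is uncertain. The submitters' processing notes list BWA 0.7.17-r1188, MACS2 2.2.7.1 and GRCh38; the treatment of multiply mapped reads is not given in the sources used here. Genes came from a GRCh38.p14 table of 59788 genes without exons or strand, so exon or intron positions were not analysed. The lowest deposited start was 0, so 1 was added.

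All 6 libraries of a mark entered one edgeR 4.0.16 quasi-likelihood fit (R 4.3.3) after filterByExpr and TMM, with Benjamini-Hochberg adjustment at 0.05 over all peaks, or over all genes for gene sums. Standard errors come from the F statistic. The fit was tested on simulated data. Alternatives were other scalings, filters, windows, thresholds and DESeq2 1.42.0, the replicate block, subsets of libraries, and, chosen after seeing the data, a term for the H3K27ac contig difference and the 150 nM H3K4me3 libraries summed. Full values are given for the strongest peak of each locus and gene and for up to 10 called peaks per mark by smallest p; others were picked after their values were seen. The 3 most alike genes per locus were ranked by Pearson correlation of log2(CPM + 0.5). The genes and lists were chosen with earlier results of these data known. Reads carry no molecular identifiers, so amplified copies may count more than once. The values of 1 gene of a list are not reported here.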

Additional observations from a re-analysis of the deposited data

How the results depend on the processing

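Of the 10 H3K4me3 peaks called at 500 nM against DMSO, 8 stayed called in every alternative fit in which they were tested; the exceptions were the peaks from 105595344 near IGHE and from 22905952 near IGLC2. Counts of called peaks or genes that moved by over 1.5 times were as follows. For H3K4me3 at 500 nM against DMSO, 10 peaks became 5 with a mean count of at least 50 (12 tested), 2 inside or touching a gene only, and 17 within 25 kb, and were 8 to 11 with 1 library left out; the 4 genes became 8 with loess offsets and 2 with peaks inside or touching the gene only. Against 150 nM, 13 H3K4me3 peaks became 8 with a mean count of at least 50 and 5 inside or touching a gene, and were 9 to 14 with 1 library left out. For H3K27ac against DMSO, 2 peaks became 4 with loess offsets, 4 with no filter, 1 with a mean count of at least 50, 0 by DESeq2, 7 with only the 4 libraries of the contrast, 5 with the contig term and 0 at an adjusted p under 0.01, and were 0 to 7 with 1 library left out. The 0 H3K27ac genes became 6 with the 4 libraries, 7 with the contig term, 2 with peaks inside or touching the gene only, and 0 to 6 with 1 library left out. Against 150 nM, 1 H3K27ac peak became 2 with loess offsets, 2 with no filter, 0 by DESeq2, 0 with the 4 libraries, 4 with the contig term and 0 at an adjusted p under 0.01, and was 0 to 4 with 1 library left out. Fewer peaks counted is part of how the narrower window is built; for the other alternatives the cause was not tested. The H3K27ac peak lost with a mean count of at least 50 was still tested there (edgeR adjusted p = 0.0582). At 150 nM against DMSO the count was 0 in all 18 alternatives for peaks and genes of both marks. Of the single values, 1 reversed: IGHG3 in H3K4me3, at -0.012 with loess offsets.

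The titles tie same-numbered replicates by number only. Their deviations correlated at 0.0047 to 0.049 for H3K4me3 and 0.0026 to 0.13 for H3K27ac. The 0.13 was for DMSO and 150 nM, whose replicates 2 were the libraries low on the unplaced contigs. Between these groups, chi-square per degree of freedom was 1.25 for replicates 1 and 1.61 for replicates 2. It was 1.51 and 2.15 across numbers, 1.29 within DMSO and 2.38 within 150 nM. With the replicate block, H3K4me3 gave 11 peaks and 4 genes against DMSO and 13 peaks against 150 nM; H3K27ac gave 4 peaks and 4 genes against DMSO and 2 peaks against 150 nM. H3K27ac depth limits single peaks, with a median of 21 to 24 counts per peak against 263 to 328 for H3K4me3.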
